A study of Mus musculus with 4 samples.

Results

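The G1 cyclins and the inhibitors of cyclin-dependent kinases (CDKs) were followed across 4 arrays of cultured mouse hepatocytes. They were taken as 10 named genes: the D-type cyclins Ccnd1, Ccnd2 and Ccnd3, the E-type cyclins Ccne1 and Ccne2, the CIP/KIP inhibitors Cdkn1a (p21), Cdkn1b (p27) and Cdkn1c (p57), and the INK4 locus genes Cdkn2a and Cdkn2c. Every probe whose gene name on the array equalled a member was read, which gave 19 of 56603 probes for 10 of 36691 gene names. All 10 genes were on the array, and 9 were detected well above background somewhere, the exception being Ccne2.

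The hepatocytes came from C57BL/6 mice and were harvested 24 h after plating. Drp1LiKO cells lack Drp1, the dynamin-related GTPase of mitochondrial fission encoded by Dnm1l, because a floxed allele was recombined by Cre under the albumin promoter, which is active in hepatocytes. The controls, called wild-type in the labels, carry the floxed gene without Cre by the study's methods, and 1 of them is titled Drp1flox. Both genotypes were measured untreated and with 200 μM palmitate, a saturated fatty acid, and the study's methods name male mice. Each of the 4 groups had 1 array, so there were no replicates, no spread between animals or cultures, and no p-value for any difference below. The number of animals behind each array, and the length and vehicle of the palmitate treatment for these arrays, are not given in the sources used here. The labels state that a sample of another series shares its raw data with the untreated control array.

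Cells enter the division cycle from rest when D-type cyclins, made in response to growth signals, bind CDK4 and CDK6 and begin to phosphorylate the retinoblastoma protein. E-type cyclins with CDK2 complete this step, which frees E2F factors to switch on the genes of DNA synthesis. INK4 proteins block CDK4 and CDK6, whereas CIP/KIP proteins mainly block CDK2 complexes. Hepatocytes rest in the adult liver, and cyclin D1 is the G1 cyclin best known for its rise during liver regeneration.

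The promoters of 3 members are shown because Ccne1 and Ccnd3 read lower together in Drp1LiKO cells, while Cdkn1a, the p53 target among the inhibitors, did not join them. The RefSeq promoter table (GRCm38.p6) matched 6 of 10 members with 10 start sites, and the 250 bases before the start are printed 5′ to 3′ on the gene's strand. Capitals mark GC boxes (GGGCGG, read on both strands) in the Ccne1 and Ccnd3 windows and in the second Cdkn1a window, and a p53 element in the first Cdkn1a window. The windows are chr7:38107491-38107740 on the minus strand for Ccne1, chr17:47593217-47593466 on the plus strand for Ccnd3, and chr17:29090729-29090978 and chr17:29093519-29093768 on the plus strand for the upstream and downstream starts of Cdkn1a.
Ccne1: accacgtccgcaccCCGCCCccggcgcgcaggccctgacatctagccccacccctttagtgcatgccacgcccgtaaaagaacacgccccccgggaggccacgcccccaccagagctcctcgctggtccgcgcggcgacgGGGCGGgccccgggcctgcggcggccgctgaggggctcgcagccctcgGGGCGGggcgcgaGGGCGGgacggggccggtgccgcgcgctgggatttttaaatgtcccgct
Ccnd3: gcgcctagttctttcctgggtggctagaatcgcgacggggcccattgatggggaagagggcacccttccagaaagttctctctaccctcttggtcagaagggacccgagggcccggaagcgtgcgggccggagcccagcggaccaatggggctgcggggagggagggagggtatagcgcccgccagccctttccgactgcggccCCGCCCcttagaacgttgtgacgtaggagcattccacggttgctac
Cdkn1a, upstream start: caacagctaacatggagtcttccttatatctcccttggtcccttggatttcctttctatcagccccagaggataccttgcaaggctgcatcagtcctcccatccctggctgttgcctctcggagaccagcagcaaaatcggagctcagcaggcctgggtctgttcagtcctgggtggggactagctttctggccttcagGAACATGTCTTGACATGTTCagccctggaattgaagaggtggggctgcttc
Cdkn1a, downstream start: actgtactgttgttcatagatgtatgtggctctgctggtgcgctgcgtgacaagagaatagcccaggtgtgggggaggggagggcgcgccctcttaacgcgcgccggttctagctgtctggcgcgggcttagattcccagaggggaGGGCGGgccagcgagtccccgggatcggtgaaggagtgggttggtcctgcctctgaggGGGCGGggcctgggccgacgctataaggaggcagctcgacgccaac

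The Ccne1 window had a GC content of 76.0% and held 4 GC boxes, and the Ccnd3 window shown held 1. A second Ccnd3 start, with the window chr17:47504801-47505050, held 2 and is not printed. A GC box was present in 32.7% of the 32851 windows in the table. The p53 element, allowing at most 1 mismatch, was found in 0.0578% of windows, or 19 of them, and the upstream window of Cdkn1a was among these. The downstream window of Cdkn1a held 2 GC boxes. Of the members' windows, the E2F words TTTCCCGC, TTTCGCGC, TTTGCCGC and TTTGGCGC, read on both strands, were found in 1 window of Cdkn2a, at position −99 from the start, against 1.86% of all windows. None of these words occurred in the Ccne1 or Ccnd3 windows shown. A match is a match of letters and was not tested as a binding site.

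Values below are normalized log2 intensities. Each is the log2 of the scanner's background-subtracted intensity minus the 75th percentile of the same array, so that 0 stands for the 75th percentile and a difference of 1 is 2-fold. A level belongs to 1 probe and is not set against the level of another gene. Arrays are given in the order control, Drp1LiKO, control with palmitate and Drp1LiKO with palmitate. A gene with several probes is represented by the one with the highest mean level. A difference was called when it reached 2-fold and 1 or both of the arrays compared had the probe well above background as the scanner software flags it.

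As a check of the labels, Dnm1l was lower in Drp1LiKO cells by a log2 difference of −1.35 untreated and −1.42 with palmitate. Between 44.7% and 51.1% of probes were well above background, and probes printed 10 times had a median SD of 0.03 to 0.04 log2 units between repeat spots. All 8 hepatocyte markers, among them Alb and Hnf4a, were well above background on every array. Of these, 7 were higher in Drp1LiKO untreated and 6 with palmitate. Past 2-fold higher were 2 and 3 of them, beside 1744 of 19801 and 1362 of 18820 of all genes tested. Cyp3a11 differed by 2.23 and 2.31, Tat by 1.5 and 1.22 and Cps1 by 0.94 and 1.12. Markers of other liver cells also differed with genotype. The summed level of the macrophage list, the log2 of the sum of its genes' linear values, was 3.28 in control and 5.21 in Drp1LiKO cells untreated, and 3.61 and 5.11 with palmitate. For the endothelial list it was 0.50 and 2.03 untreated and 0.51 and 1.5 with palmitate, and for the stellate list 5.50 and 5.97, and 5.54 and 5.89. The stellate sums rest mostly on Acta2, which read 5.46 and 5.69 untreated and 5.50 and 5.52 with palmitate. Acta2 differed by 0.22 and 0.02, while the median over the stellate genes measured on both arrays was 1.11 and 1.61. Of the macrophage genes, 11 of 11 tested were higher in Drp1LiKO untreated and 10 of 10 with palmitate, Timd4 being above background nowhere. The figures were 8 of 8 and 6 of 7 for endothelial genes and 8 of 8 and 7 of 7 for stellate genes, without Des. Some of these genes were tested only through the array where they were high, which largely fixes their direction. Measured on both arrays were 9 macrophage, 6 endothelial and 5 stellate genes untreated, and 6, 4 and 4 with palmitate, all higher in Drp1LiKO. Over all genes tested, 9475 of 19801 were higher untreated and 8722 of 18820 with palmitate. The cholangiocyte list summed to 3.26 and 3.04 untreated and 2.58 and 2.31 with palmitate, and the neutrophil list to −4.13 and −2.41 and to −3.15 and −1.03, without Epcam, S100a9 and Retnlg, which were above background nowhere. The neutrophil sums hold S100a8 and Ly6g alone and are in part background readings. Neither gene was well above background in untreated control cells, nor S100a8 in untreated Drp1LiKO cells, nor Ly6g in control cells with palmitate. Measured on both arrays were 0 neutrophil genes untreated and 1 with palmitate. In untreated control cells Clec4f and Vsig4, Lyve1 and Tek, and Col3a1, Lrat and Pdgfrb were not well above background. The other genes of the macrophage, endothelial and stellate lists were, apart from Timd4 and Des. In Drp1LiKO cells with palmitate, Vsig4, Clec4g, Tek and Lrat were not well above background, while Tek was in control cells with palmitate. The part of these markers and cells in the differences of the cyclins was not tested, and in bulk samples fewer cells of a type and less RNA per cell cannot be told apart.

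**Figure D1:**
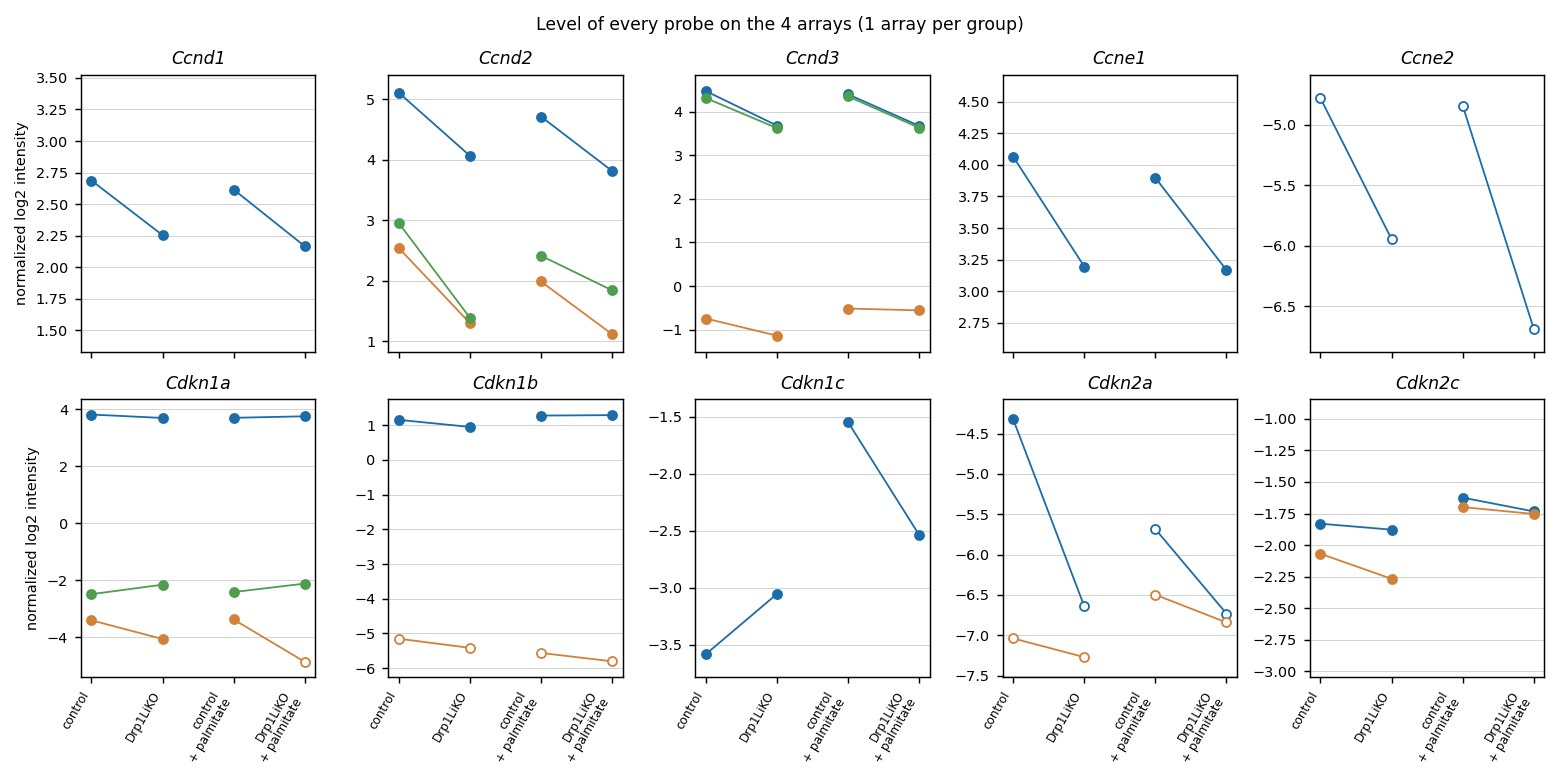
Normalized log2 intensity of every probe of the 10 genes on the 4 arrays, with 1 point per array, 1 colour per probe, and a line joining the genotypes within a condition. Filled points were well above background and open points were not, and each panel has its own vertical range. The cyclins measured here slope down from control to Drp1LiKO in both conditions, whereas the brightest Cdkn1a and Cdkn1b probes stay nearly level and Cdkn1c slopes up untreated and down with palmitate.

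All 4 measured G1 cyclins read lower in Drp1LiKO than in control cells, both untreated and with palmitate. Their median log2 difference was −0.83 untreated and −0.73 with palmitate, beside −0.02 and −0.03 over all genes tested. Only Ccnd2 untreated reached 2-fold.

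Ccnd2, a D-type cyclin induced by growth signals, was read by a probe on chromosome 6 at 127080268 to 127080327 (mm9). Its levels were 5.11, 4.07, 4.71 and 3.82. Both Drp1LiKO arrays thus lay below both control arrays, as for the other measured cyclins. The share of all genes that separate in this way was not counted. The difference was −1.04 untreated, or 2.06-fold lower, and −0.90 with palmitate, or 1.87-fold lower, each with an error of 0.20 as the scanner software estimates it for 2 spots. Of the genes measured on both arrays, 3.01% of 17602 and 3.07% of 16736 had a lower difference. The call at 2-fold lies at the threshold, since quantile normalization and the deposited value table each gave −0.99 for the untreated difference. A second Ccnd2 probe of the same transcript read 2.54, 1.30, 1.99 and 1.11. Its differences were −1.24 and −0.87, near those of the first. The other Ccnd2 probe, designed on a predicted transcript, read 2.95, 1.39, 2.41 and 1.84. It gave −1.57 untreated and −0.57 with palmitate, so the 3 probes shared the direction and not the size.

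Ccnd3, the D-type cyclin best known from lymphoid cells, was read on chromosome 17 at 47736579 to 47736638. Its levels were 4.47, 3.68, 4.40 and 3.68. The differences were −0.79 and −0.72, a level 1.73-fold and 1.65-fold lower. A probe shifted by a few bases gave −0.69 and −0.72. The last and much dimmer Ccnd3 probe, designed on an Ensembl transcript, read −0.74, −1.14, −0.52 and −0.56. It differed by −0.39 untreated and by −0.04 with palmitate, which is within the scanner's error of 0.21.

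Ccnd1 had 1 probe, on chromosome 7 at 152116202 to 152116261. It read 2.69, 2.25, 2.62 and 2.17. The differences of −0.43 and −0.45 were nearly the same in both conditions and smaller than those of the other measured cyclins. They corresponded to levels 25.9% and 26.7% lower, and 14.3% and 10.4% of genes measured on both arrays had a lower difference.

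Ccne1, the cyclin that activates CDK2 at the entry to S phase and is itself an E2F target, was read by 1 probe on chromosome 7, whose listed position covers 24 bases from 38882937 to 38882960. It read 4.07, 3.19, 3.90 and 3.17. The differences were −0.87 and −0.73, levels 45.3% and 39.8% lower. Ccne2 was not well above background on any array, where its probe read between −6.68 and −4.78, and no difference is given for it.

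**Figure D2:**
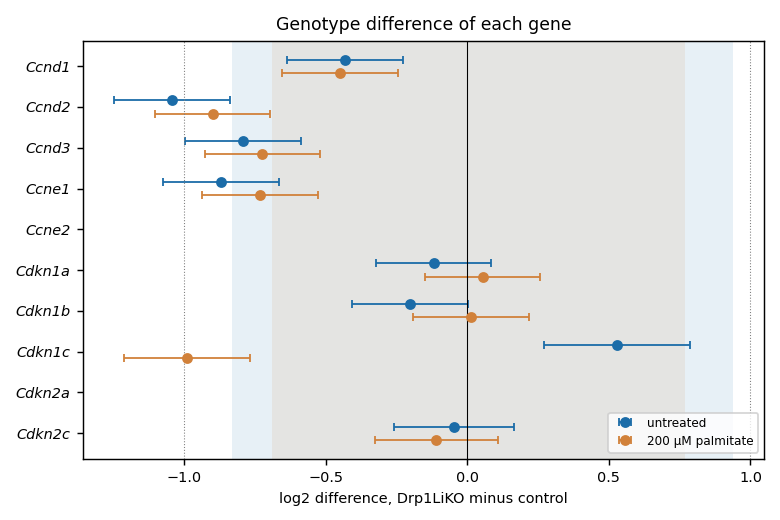
Log2 difference of each gene, Drp1LiKO minus control, untreated and with 200 μM palmitate. Bars are the scanner software's error of a difference between 2 spots and hold no biological spread; shaded bands span the 5th to the 95th percentile of all genes measured on both arrays, and dotted lines mark 2-fold. Ccnd2 and Ccne1 lie below the bands in both conditions (−1.04 and −0.90, −0.87 and −0.73), Ccnd1 lies within them, and Cdkn1c is at 0.53 untreated and −0.99 with palmitate. Ccne2 and Cdkn2a have no point because they were not measured on both arrays.

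By median, the CDK inhibitors differed less than the cyclins, though Cdkn1c reached −0.99 with palmitate. Untreated, 4 of 5 read lower in Drp1LiKO and 1 higher, and with palmitate 2 of 4 read lower and 2 higher. Their median difference was −0.12 over 5 genes untreated and −0.05 over 4 with palmitate. The 5 include Cdkn2a, which entered through the control array alone with a Drp1LiKO reading at background. Over the 4 genes measured on both arrays the untreated median was −0.08. Cdkn1a, which carries out much of the p53-dependent arrest in G1, was read on chromosome 17 at 29237377 to 29237436, with levels of 3.81, 3.69, 3.69 and 3.75. The differences of −0.12 and 0.05 were smaller than the scanner's error of 0.20. A dimmer probe for the transcript NM_001111099 read −2.49, −2.16, −2.42 and −2.12. It was slightly higher in Drp1LiKO, by 0.33 and 0.30, with an error of 0.22 to 0.23. A further probe, for an Ensembl transcript, read −3.41, −4.06, −3.38 and −4.86 and was not well above background on the last array. With the mean of the 3 probes, the Cdkn1a difference with palmitate turned to −0.38.

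Cdkn1b, which holds CDK2 inactive in resting cells, read 1.15, 0.95, 1.28 and 1.29 on chromosome 6 at 134875424 to 134875483. The genotype differences were −0.20 and 0.01. The second Cdkn1b probe was not well above background on any array. Cdkn2c, an INK4 inhibitor of CDK4 and CDK6, read −1.83, −1.88, −1.62 and −1.73 on chromosome 4 at 109333779 to 109333838, with differences of −0.05 and −0.11. Its second probe gave −0.20 and −0.05. These values place Cdkn1b and Cdkn2c among the genes with little genotype difference at the precision of single spots.

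Cdkn1c, an imprinted inhibitor best known from embryonic growth control, had genotype differences of opposite sign in the 2 conditions, both larger than the scanner's error. Those of Cdkn1a and Cdkn1b also changed sign, but at sizes within or near that error. Its 1 probe, on chromosome 7 at 150644297 to 150644356, was dim but well above background on all 4 arrays, with levels of −3.58, −3.05, −1.55 and −2.54. The control array with palmitate stood above the others. The difference was 0.53 untreated and −0.99 with palmitate, with scanner errors of 0.26 and 0.22. Of the genes measured on both arrays, 88.4% had a lower difference untreated and 2.53% with palmitate. Under quantile normalization the differences were 0.35 and −1.04, the latter past 2-fold, and under normexp background correction they were 0.15 and −0.67, so that the untreated difference was then within the error. None of the 24 spots around this probe was lit on 1 array alone (0 on each array). Over all non-control spots the mean was 0.29, 0.59, 0.13 and 0.22 of 24, so 0 is a usual count and says little about this probe.

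Cdkn2a, the locus of p16INK4a and p19ARF, was detected above background in untreated control cells alone, where its brighter probe read −4.32. The readings of −6.64, −5.69 and −6.73 on the other arrays were at background. Set against the lowest signal well above background on the untreated Drp1LiKO array, the bound was 1.53-fold higher in control, or 0.62 in log2. That bound is not firm, since the scanner's error of the difference was 1.05 and normexp gave a difference of −0.48. No fold is given against the control array with palmitate, where the bound was under 1-fold. The second Cdkn2a probe was not well above background on any array.

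At the 2-fold threshold, 2 of 9 members tested were called untreated, Ccnd2 and Cdkn2a, both lower in Drp1LiKO, and 14.4% of 19801 genes were called. The call of Cdkn2a rests on a Drp1LiKO reading at background and entered through the control array alone. Its bound of 1.53-fold is short of the threshold, which leaves 1 member, Ccnd2. With palmitate 0 of 8 members were called, against 11.5% of 18820 genes. At 1.5-fold, 4 of 9 members were lower untreated (Ccnd2, Ccnd3, Ccne1 and Cdkn2a) beside 11.4% of genes. With palmitate 4 of 8 were lower (Ccnd2, Ccnd3, Ccne1 and Cdkn1c) beside 8.33% of genes.

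The palmitate responses of the cyclins were small in both genotypes. Untreated and palmitate arrays lay on different slides, so palmitate and slide cannot be told apart. The response, palmitate minus untreated, was −0.39 in control and −0.25 in Drp1LiKO for Ccnd2, and for the other measured cyclins it lay between −0.17 and −0.01. The median over the 4 cyclins was −0.12 in control and −0.06 in Drp1LiKO. Ccnd2 was the cyclin with the lowest response in control cells, where 3.08% of 16781 genes had a lower one. Its second probe gave −0.55 and −0.18, while the probe of the predicted transcript gave −0.54 in control and 0.45 in Drp1LiKO, so the probes differ in direction for the knockout cells.

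Among the inhibitors, Cdkn1a responded by −0.11 in control and 0.06 in Drp1LiKO, and Cdkn2c by 0.21 and 0.14. Cdkn1b responded by 0.12 and 0.34, neither near 2-fold. Cdkn1c was the exception. Its level was 2.04 log2 units higher with palmitate in control cells, a 4.10-fold difference with a scanner error of 0.25, and 0.52 higher in Drp1LiKO cells, or 1.43-fold. In control, 99.9% of genes measured on both arrays had a lower response. The responses of Cdkn1c therefore differed by −1.52 between the genotypes, a difference that could not be tested with 1 array per group. Under normexp background correction it was −0.81, and the control response was 1.20. In control cells 2 of 9 members were called, Cdkn1c higher and Cdkn2a lower, and 5.62% of 18703 genes were called. Cdkn2a entered this count only through the untreated array, with its palmitate reading at background, which leaves Cdkn1c as the member measured past 2-fold on both arrays. In Drp1LiKO cells 0 of 8 members were called, against 7.0% of 19675 genes. With values at background raised to the floor, the Cdkn2a response in control turned from −1.36 to 0.15.

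**Figure D3:**
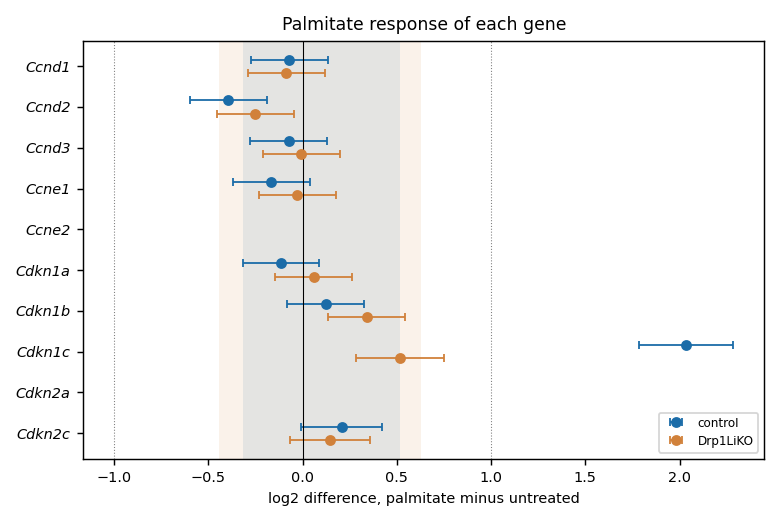
Log2 response of each gene to palmitate, palmitate minus untreated, in control and Drp1LiKO cells, with bars, bands and dotted lines as in the plot of genotype differences. The cyclins lie between −0.39 and −0.01, and Cdkn1c in control cells stands at 2.04, to the right of the band and of the 2-fold line, against 0.52 in Drp1LiKO cells.

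The partners of the cyclins are read against the same shares of all genes called, 14.4% untreated and 11.5% with palmitate. Of 7 cyclin-dependent kinases and activators, 0 were called in either genotype comparison. Cdk2, the partner of cyclin E, was lower by −0.68 untreated and −0.85 with palmitate. Cdk4 and Cdk6, the partners of the D-type cyclins, differed by 0.16 and 0.16 and by −0.38 and −0.15. Cdc25a, the phosphatase that activates CDK2, differed by −0.40 and −0.26, and the CDK-activating kinase genes Cdk7, Ccnh and Mnat1 by 0.18, 0.17 and −0.08 untreated and by 0.02, 0.04 and −0.36 with palmitate. The INK4 genes outside the set, Cdkn2b and Cdkn2d, differed by 0.14 and −0.42 untreated and by 0.06 and −0.11 with palmitate. Of 10 genes for the turnover of cyclins and inhibitors, 8 were lower in each condition, with medians of −0.25 and −0.10, and 0 were called. Over all genes tested, 10326 of 19801 were lower untreated and 10098 of 18820 with palmitate. In the turnover list Skp2, the ubiquitin ligase subunit that targets p27, differed by −0.50 and −0.88.

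The pocket proteins and E2F factors act downstream of these kinases. Of 13 pocket protein and E2F genes, 10 were lower in Drp1LiKO untreated and 11 with palmitate, with medians of −0.41 and −0.46, and 2 were called in both, beside 14.4% and 11.5% of all genes. E2f7 and E2f8, the E2F repressors known for their role in hepatocyte polyploidy, differed by −2.71 and −2.65 and by −1.85 and −1.70. The retinoblastoma gene Rb1 differed by −0.18 and −0.32, Rbl1 by −0.41 and −0.58, Rbl2 by −0.16 and −0.52, and the activator E2f1 by −0.71 and −0.45. E2f2 differed by −0.70 and −0.60, E2f3 by 0.05 and 0.12, E2f4 by −0.23 and −0.12, E2f5 by 0.45 and 0.23, E2f6 by 0.09 and −0.11, Tfdp1 by −0.56 and −0.46 and Tfdp2 by −0.79 and −0.99.

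All 16 E2F target genes of S phase read lower in the knockout cells, untreated and with palmitate. The medians were −0.98 and −0.95, and 8 genes were called untreated and 7 with palmitate, beside 14.4% and 11.5% of all genes. The S phase cyclin Ccna2 (−2.40 and −2.12), the ribonucleotide reductase subunit Rrm2 (−1.78 and −1.74), the replication licensing factor Cdc6 (−1.68 and −1.74) and the origin recognition subunit Orc1 (−1.51 and −1.32) had the largest mean of both differences in this list. The 4 G2 and M genes were lower as well, with 3 called untreated and 4 with palmitate. The mitotic cyclin Ccnb1 differed by −2.04 and −1.79, Ccnb2 by −1.41 and −1.64, and their kinase Cdk1 by −1.33 and −1.32. By median, the G1 cyclins (−0.83 and −0.73) thus lay between the kinases and activators (−0.08 and −0.15) and the S phase genes. No gene of these lists was called for palmitate in either genotype, beside 5.62% of all genes in control and 7.0% in Drp1LiKO cells.

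The p53 list bears on Cdkn1a. Of 20 genes, p53 itself (Trp53) included, 15 were lower in Drp1LiKO in each condition, with medians of −0.24 and −0.16, and 2 were called untreated and 0 with palmitate. Over all genes tested, 10326 of 19801 were lower untreated and 10098 of 18820 with palmitate, and the share called was 14.4% and 11.5%. The 2 were Bax, a mediator of apoptosis (−1.60 untreated and 0.13 with palmitate), and Ei24 (−1.07 and −0.29), both named after their values were seen. Bax was also the 1 gene of this list called for palmitate, at 1.87 in Drp1LiKO, where 7.0% of all genes were called. Trp53 differed by 0.00 and −0.45, and Mdm2, which feeds back on p53, by −0.01 and −0.02.

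**Figure D4:**
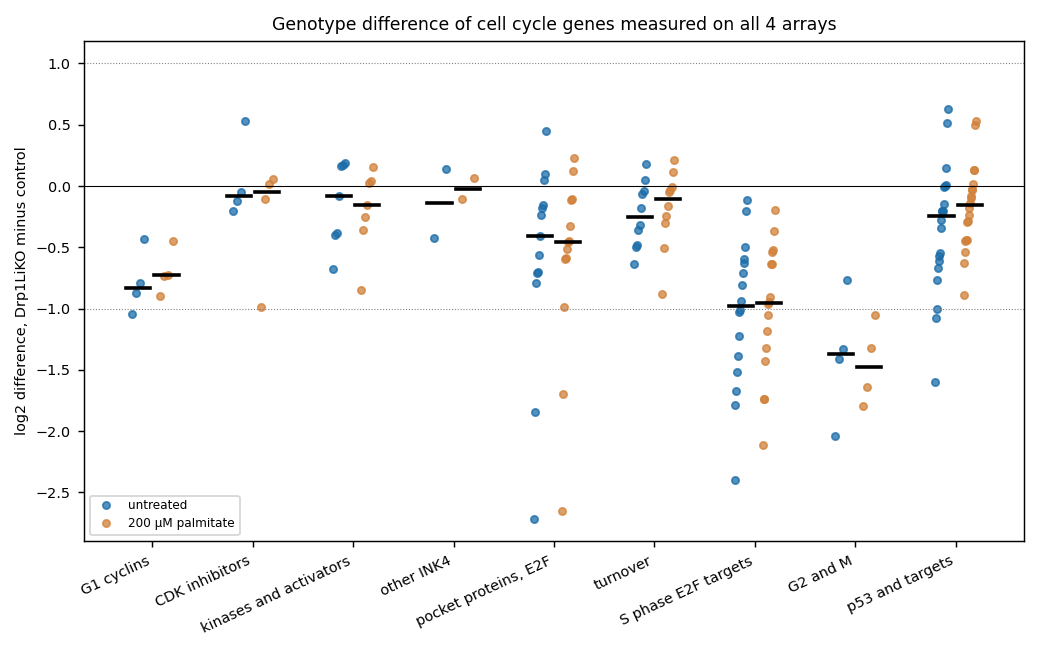
Log2 genotype difference, Drp1LiKO minus control, for each gene of the cell cycle lists measured on all 4 arrays, untreated and with 200 μM palmitate. Points are genes, black lines are medians and dotted lines mark 2-fold. All points of the G1 cyclins, the S phase E2F targets and the G2 and M genes lie below 0, and the S phase list reaches −2.40 with Ccna2.

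The genes with profiles most like those of 3 members were listed by Euclidean distance over the 4 arrays, each gene centred on its mean, among 16563 genes well above background on all of them. Fnta, Nceh1 and Farp1 were nearest to Ccnd1, at distances of 0.01 to 0.02 log2 units. For Ccnd2 they were Fas, Xrcc2 and Reep6, at 0.04 to 0.05. Fas is also a gene of the p53 list. Med7, ENSMUST00000182630 and Ptp4a1 were nearest to Cdkn1a, at 0.00 to 0.01. With 4 arrays a small distance is a description of these values.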

How the data were processed

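RNA was labelled with Cy3 and hybridised to a 60K Agilent mouse array, 1 per group. The authors deposited 1 scanner table per array, with linear intensity per spot from Agilent Feature Extraction, version 10.7.1.1 per the file headers and 9.5.1.1 in the submitters' processing notes, with background subtracted within each array and no scaling between arrays. The labels name TRIzol with a Promega kit for the RNA and the methods a QIAGEN kit. Here the log2 of the processed signal minus the 75th percentile over non-control spots was used (485, 542, 424 and 468 in intensity, in the order of the arrays above). Control spots and outlier flags were left out, repeat spots were averaged, and 0 spots were saturated. Tools were Python 3.11.15 with numpy 2.4.6 and pandas 2.3.3, also for quantile normalization, and limma 3.58.1 in R 4.3.3 for normexp.

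A change shared by most transcripts is invisible after this scaling. With 1 array per group no test was made, and precision is limited by how few arrays there are. Where a probe was below background on the dimmer array, the fold is a bound against the lowest signal well above background there. Alternatives were 2 other scalings, quantile normalization, normexp with an offset of 50, the mean of all probes of a gene, 3 treatments of dim probes, a 1.5-fold threshold and the authors' deposited value table. That table holds linear intensity values with the same sorted values in its 4 columns and a median of 4.18 (log2) in each, keeps the rank order of each array (Spearman's rho of 1.00), and gives no statement of its normalization.

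All members are named with all their probes. The kinase, other INK4 and pocket protein lists are named in full, and other lists by up to 4 genes called in the same direction in both genotype comparisons; the other genes named, Skp2, Trp53, Mdm2, Bax and Ei24, were named after their values were seen. The members and lists were chosen with earlier results of these data known. The difference script was tested on simulated data. Positions are mm9 as the scanner tables give them, and the exon or UTR of each probe was not looked up.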

Additional observations from a re-analysis of the deposited data

Results flagged for a closer look

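Cdkn1c was singled out because its genotype difference had opposite signs in the 2 conditions, −0.99 with palmitate and 0.53 untreated. The rule asked that both exceed 0.11 in size, a limit set from the SD between repeat spots. Both differences were also larger than the scanner's error of 0.22 and 0.26. Under normexp background correction they were −0.67 and 0.15, the latter smaller than the error. With 1 array per group, the difference between conditions was not tested. It rests on 1 dim probe with intensities of 40.5 and 65.3 untreated and 145 and 80.7 with palmitate, and on the slide that each condition had to itself.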

How the results depend on the processing

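No paired analysis was possible because each group has 1 array, and for the same reason no array could be left out. The count of members past 2-fold between genotypes, 2 untreated, was 1 under quantile normalization, in the deposited value table, under normexp, with probes well above background on both arrays and with dim values raised to the floor, 3 without a filter on dim probes and 4 at a 1.5-fold threshold. With palmitate, where it was 0, it was 1 under quantile normalization and in the deposited value table, 2 without a filter on dim probes and 4 at 1.5-fold. The count for palmitate in control cells, 2, was 1 under normexp, with probes well above background on both arrays and with the floor, and the count of members whose palmitate responses differed past 2-fold, 2 (Cdkn1c at −1.52 and Cdkn2a at 1.27), was 0, 1 and 1 under the same alternatives. The count for palmitate in Drp1LiKO cells was 0 under each alternative. The floor turned the Cdkn2a response in control from −1.36 to 0.15. Of the values for single members under the alternatives, 402 kept their direction and their side of the threshold. Another 8 came to lie past the threshold, most of them only because the 1.5-fold setting lowered it. A further 8 fell short of it, 8 that were under 2-fold changed sign, and 1 that was past 2-fold reversed. The cyclin differences between genotypes kept their sign in every alternative, Ccnd1 between −0.44 and −0.41 and Ccnd2 between −1.28 and −0.99 untreated. Leaving out the filter on dim probes lowered the median genotype difference of all genes by 0.20 untreated, and no other alternative moved the median of all genes by over 0.1. Without the filter the members' median genotype differences were −0.61 and −0.73. They moved from −0.43 to −0.32 untreated with probes well above background on both arrays, and from −0.59 to −0.47 with palmitate with the mean of all probes. Signal over background limits Cdkn2a, Ccne2 and Cdkn1c, whose probes were at or near it. The cause of these shifts was not tested.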
